A study of Mus musculus with 4 samples.

Results

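C3 Vcam1 macrophages are tumour macrophages that carry transcripts of the complement component C3 and of the adhesion molecule VCAM-1. They were selected among immune cells of tumours grown from MC38, a transplantable colon cancer line of the mouse. Hosts were either wild-type mice (WT) or Park2-/- mice (KO). A cell was selected if it had at least 1 UMI (a unique molecular identifier, which counts a captured transcript) of Csf1r, at least 2 of C3 and at least 1 of Vcam1. It also had to have fewer than 2 UMIs each of Fcrls and Mmp13, no UMI of Lyve1, Cd209f, Cd3d, Cd3e or Cd3g, and not both Mki67 and Top2a. Of 44184 cells that passed the filters, 834 met the rule. C3 and Vcam1 chose the cells, and the group was proposed with its KO share already known, so those values are description without a test.

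The series holds 2 WT and 2 KO libraries of CD45-positive cells enriched on magnetic beads after enzymatic digestion of the tumours. The labels state neither strain, sex or age nor how many animals stand behind a library. P-values therefore measure how far these libraries spread, and that spread may be technical. Median depth per cell was 9906 and 12133 UMIs in the WT libraries and 6052 and 8308 in the KO libraries. Libraries shared 203 cell barcodes summed over their pairs, and no barcode of a C3 Vcam1 macrophage was shared.

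C3 is the central component of complement: its cleavage tags particles for uptake and releases the peptide C3a. The liver makes most circulating C3, and macrophages make it locally. VCAM-1 binds integrin alpha4 beta1 on leukocytes, and macrophages that carry it have been described in spleen, bone marrow and tumours. Il18bp encodes a secreted protein that binds interleukin-18 and blocks it, and its transcription is inducible by interferon gamma.

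WT 1 held 17 C3 Vcam1 macrophages and WT 2 held 45, against 555 in KO 1 and 217 in KO 2. These were 0.196% of kept cells in WT 1 (95% Wilson interval 0.123 to 0.314), 0.510% in WT 2 (0.382 to 0.682), 3.23% in KO 1 (2.97 to 3.50) and 2.28% in KO 2 (2.00 to 2.61). Intervals here cover counting error only. The WT mean was 0.353% ± 0.222 and the KO mean 2.76% ± 0.665 (SD over n = 2), a ratio of 7.80, and both KO libraries lay above both WT libraries. Among macrophages, defined by at least 1 UMI each of Csf1r and Adgre1 and none of the 3 Cd3 genes, selected cells that also carried Adgre1 made up 0.337%, 0.904%, 8.40% and 5.59% in WT 1, WT 2, KO 1 and KO 2. Median depth over all kept cells was lower in KO, though not within T cells (defined below), at 2932, 3133, 2859 and 3246 UMIs. Each cell was therefore also thinned to 3000 UMIs. Shallower cells were left out (1798, 1188, 5404 and 2579 in the same order), among them 107, 144, 849 and 327 T cells. Thinning thus also changed the mix of kept cells. The share of kept cells was then 0.160%, 0.105%, 1.69% and 1.08%, and that of macrophages 0.384%, 0.324%, 5.36% and 4.73%, with KO again above WT in every library. As a share of cells, it does not separate a change in the number of these macrophages from a change in the other cells.

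**Figure D1:**
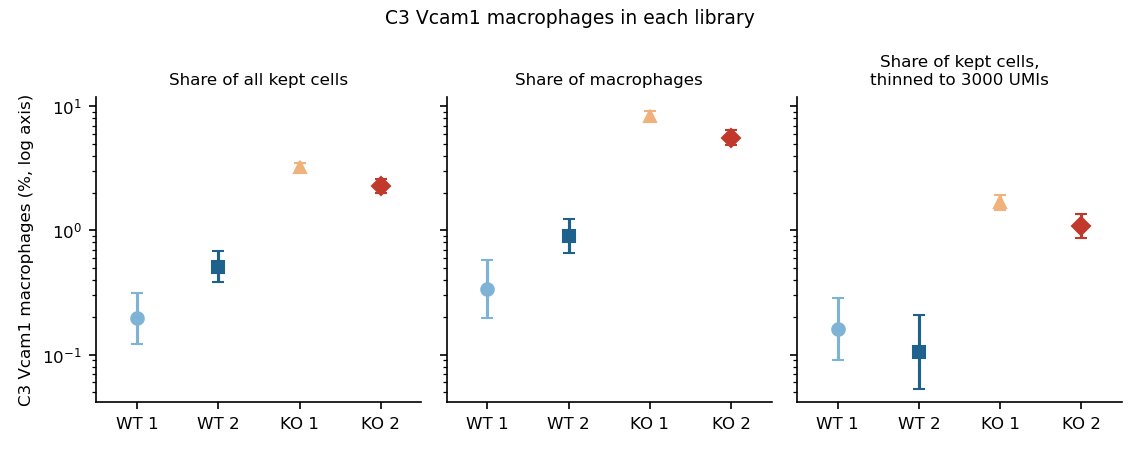
Share of C3 Vcam1 macrophages in each library on a log axis, as a percent of all kept cells, of macrophages, and of kept cells after thinning to 3000 UMIs. Points are single libraries and bars are 95% Wilson intervals: in all 3 panels the KO libraries lie above the WT libraries, for example 3.23% and 2.28% against 0.196% and 0.510% of kept cells.

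The genotypes parted at the C3 step of the rule and again at the Fcrls step. Of macrophages, 20.6% and 35.8% had a C3 UMI in WT 1 and WT 2, against 67.1% in KO 1 and 65.1% in KO 2. Vcam1 was found in 14.3% and 16.1% of WT macrophages and in 17.9% and 16.6% of KO macrophages, a far narrower range. After the C3 and Vcam1 steps 99, 164, 841 and 432 cells remained in WT 1, WT 2, KO 1 and KO 2. The limit on Fcrls then reduced them to 25, 68, 754 and 345, a larger loss in WT. Without the Fcrls and Mmp13 limits the share was 0.750%, 1.27%, 3.80% and 3.18%, an order of libraries that stayed the same with a smaller gap. Free RNA reaches cells that do not make a transcript: in T cells (at least 2 Cd3 UMIs and no Csf1r, median depth 2859 to 3246 UMIs) a C3 UMI was found in 0.485%, 0.952%, 8.63% and 4.41%. At 2 UMIs, the minimum of the rule, the T cell shares were 0 of 206 cells in WT 1, with an upper Wilson bound of 1.83%, then 0.317% in WT 2, 0.888% in KO 1 and 0.401% in KO 2. Vcam1 was found in 1.46% to 1.90% of T cells in all 4 libraries. The macrophage shares lay well above those of T cells, whose depth was lower, in every library for both genes.

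The selected cells carried macrophage transcripts. Levels are given as CPM, counts per 1000000 UMIs summed over the selected cells of a library, and each value is the level of 1 gene in 1 library. The summed level of 14 macrophage markers, Csf1r of the rule among them, was 19795 CPM in WT 1, 28820 in WT 2, 45765 in KO 1 and 41171 in KO 2. None of the 14 was at 0. Over all kept cells, most of which carry Csf1r, the sum was 19716, 24320, 34100 and 28887 CPM, so WT 1 lay hardly above it. In C3-negative macrophages (defined below) the sum was 24387, 29642.5, 40078 and 32610 CPM, above the selected cells in both WT libraries and below them in both KO libraries. Monocyte markers summed to between 550 and 757 CPM in the selected cells. Some selected cells went against the label: 19 carried at least 5 UMIs of fibroblast markers (15 cells) or endothelial markers (5 cells), and 5 of the 19 had no UMI of Ptprc, the gene of CD45. They were 1 of 17 cells in WT 1, 6 of 45 in WT 2, 6 of 555 in KO 1 and 6 of 217 in KO 2. They held 20.01% and 16.8% of the UMIs in the WT sums but 1.46% and 6.11% in the KO sums, more than their share of cells in every library. Whether some of these barcodes held more than 1 cell was not tested. Summed fibroblast markers reached 4050 CPM in WT 2 and 101 to 151 CPM in the others, and fell to between 6.07 and 14.4 CPM once the 19 cells were left out. Comparisons of genotypes are therefore given with all 834 cells and with the 815 that remain. Depth was similar within the group, with a median of 11359 and 11808 UMIs per selected cell in WT and 9535 and 13654 in KO. Their summed counts were 206110, 559956, 5780861 and 3341965 UMIs, so the WT sums, and above all WT 1 with 17 cells, limit every comparison of levels.

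The selected cells carried a median of 3 and 4 C3 UMIs in WT 1 and WT 2 and 6 in each KO library, with a highest value of 62 in KO 2. C3 was at 374 and 413 CPM in the WT sums and at 805 and 683 CPM in the KO sums, and Vcam1 at 204 and 320 against 381 and 307 CPM. These levels are bounded from below by the rule and are description only. Just inside the C3 limit, cells with exactly 2 C3 UMIs numbered 7, 8, 88 and 27 and held 26.9, 30.5, 164 and 74.1 CPM of Il18bp in WT 1, WT 2, KO 1 and KO 2. Just outside it, the 10, 34, 128 and 66 cells with 1 C3 UMI held 43.6, 24.8, 101 and 63.5 CPM. Cells just inside the Vcam1 limit, with exactly 1 Vcam1 UMI, held 4417, 6905, 22112 and 9737 CPM of Apoe, while cells with none held 2648, 3926, 11146 and 4772 CPM.

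Promoters of 4 genes are shown because the results below turn on them: C3 and Il18bp as markers, Cxcl9 as the macrophage gene whose lowest ratio to C3-negative macrophages over the 4 libraries was highest, and Igtp as an interferon-induced GTPase that rose in KO. Each window holds the 250 bases before the start of the gene in RefSeq on GRCm38.p6, 5′ to 3′ on the gene's strand, at chr17:57228137-57228386 (minus strand) for C3, chr7:102018233-102018482 (minus) for Il18bp, chr5:92328080-92328329 (minus) for Cxcl9 and chr11:58199306-58199555 (plus) for Igtp. Capitals mark matches, on either strand, to a GAS motif (TTCNNNGAA, an interferon gamma response element), to an interferon-response motif (a pair of GAAA cores set 2 bases apart) or to a kappaB motif (GGGNNTTCC).
C3: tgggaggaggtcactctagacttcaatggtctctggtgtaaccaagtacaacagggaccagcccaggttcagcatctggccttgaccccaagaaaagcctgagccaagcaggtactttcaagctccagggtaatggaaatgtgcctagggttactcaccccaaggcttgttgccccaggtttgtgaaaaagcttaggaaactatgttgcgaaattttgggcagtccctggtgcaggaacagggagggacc
Il18bp: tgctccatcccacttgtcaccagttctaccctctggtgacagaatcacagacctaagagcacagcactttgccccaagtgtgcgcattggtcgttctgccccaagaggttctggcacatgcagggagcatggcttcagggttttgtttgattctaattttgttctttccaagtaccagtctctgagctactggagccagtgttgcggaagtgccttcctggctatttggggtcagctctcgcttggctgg
Cxcl9: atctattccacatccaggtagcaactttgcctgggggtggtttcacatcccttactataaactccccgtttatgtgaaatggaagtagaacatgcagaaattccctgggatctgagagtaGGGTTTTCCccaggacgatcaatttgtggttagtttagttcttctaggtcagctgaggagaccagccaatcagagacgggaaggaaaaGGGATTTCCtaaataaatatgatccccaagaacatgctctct
Igtp: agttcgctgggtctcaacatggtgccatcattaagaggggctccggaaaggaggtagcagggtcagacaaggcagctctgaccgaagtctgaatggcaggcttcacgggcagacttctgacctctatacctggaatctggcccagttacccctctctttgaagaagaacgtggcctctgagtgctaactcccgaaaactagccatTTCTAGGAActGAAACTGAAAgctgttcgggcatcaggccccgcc
The Igtp window held a GAS match that began 45 bases before the start and an interferon-response match that began 34 bases before it, and the 2 did not overlap. The Cxcl9 window held kappaB matches at 130 and 42 bases before the start. No match to these letters was found in the windows of C3 and Il18bp, which says nothing of sites elsewhere or of other spellings. The Il18bp window lies inside the gene as annotated in GENCODE, which begins at chr7:102018690. Bases before that outer start were not searched. Of 32851 promoter windows of this length, 7.02% held the GAS letters, 2.98% the interferon-response letters and 4.98% the kappaB letters. These matches are description.

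The selected cells were set beside C3-negative macrophages (Csf1r and Adgre1 present, no C3 UMI, the same exclusions; 1213, 1067, 1323 and 687 cells in WT 1, WT 2, KO 1 and KO 2). Because UMIs chose the cells, the ratios are description without a test, on the scale of log2(CPM + 1). Of 4936 genes with at least 20 CPM in the higher class of every library, 47 (0.952%) were more than 1 log2 unit higher in the selected cells in every library, and 7 (0.142%) were as much lower. Without WT 1 the 2 counts came to 73 and 13. Dcn, Col3a1 and Bgn, which encode matrix proteins of fibroblasts, were among the 15 highest by the rule for naming, and none of the 3 kept a ratio above 1 in every library once the 19 cells with stromal markers were left out. The log2 ratio of Dcn then ranged from -1.07 to 1.49. The other 12 of the 15 kept ratios above 1 in every library without them.

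Cxcl9, a chemokine that draws T cells through the receptor CXCR3, had the highest of those 12 when each gene is ranked by its lowest ratio over the libraries with all cells. It was at 563, 1447, 1547 and 1478 CPM in the selected cells of WT 1, WT 2, KO 1 and KO 2, and at 31.8, 107, 259 and 247 CPM in C3-negative macrophages. The log2 ratio was 4.10 and 3.75 in the WT libraries and 2.57 in each KO library. Nr1h3, the gene of the sterol-sensing nuclear receptor LXR alpha, was at 29.1, 30.4, 47.2 and 41.6 CPM against 2.64, 3.13, 5.22 and 6.38 CPM. The ratio of Nr1h3 ran from 2.53 to 3.05, and in KO 1 it was 2.96 and so above that of Cxcl9. Cfb, which encodes factor B of the alternative complement pathway, was at 43.7, 26.8, 68.7 and 73.6 CPM against 4.57, 4.88, 8.03 and 8.29 CPM. Every selected sum of Cfb lay above every C3-negative sum. The ratio of Cfb was 2.95 in KO 1 and 3.01 in KO 2, above that of Cxcl9 in both KO libraries.

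Il18bp was at 34.0, 50.0, 241 and 166 CPM in the selected cells and at 8.43, 8.38, 57.6 and 40.3 CPM in C3-negative macrophages, a log2 ratio of 1.89 to 2.44. Ccl8, a monocyte-attracting chemokine, was at 1257, 789, 3940.1 and 2921 CPM against 265, 43.8, 1249 and 579 CPM. Its ratio was the most uneven of the 12, from 1.66 in KO 1 to 4.14 in WT 2. Pla2g7, which encodes the secreted phospholipase that degrades platelet-activating factor, was at 393, 577, 813 and 683 CPM against 94.6, 129.5, 227 and 179.6 CPM. Slamf8, Cd40, Gbp5, Calhm6, Ly6i and Hvcn1, of which Cd40 encodes a co-stimulatory receptor and Gbp5 an interferon-induced GTPase, made up the rest, with ratios between 1.50 and 3.96. Lower in the selected cells were Spp1 (osteopontin), Fn1 (fibronectin), Cd24a, Thbd (thrombomodulin), Nt5e (CD73), Tnfrsf23, Tiam1, Rgcc, Gcnt1 and Atp8b4, of which Spp1, Gcnt1 and Atp8b4 fell short of 1 log2 unit in at least 1 library. Fn1 was at 1601, 1427, 704 and 1130.5 CPM against 5221, 3042, 2138 and 2328 CPM. Spp1 was at 1291, 2132, 1576 and 2784 CPM against 5951, 4703, 5678 and 5307 CPM, so every selected sum lay below every C3-negative sum. Thbd was at 0, 5.36, 14.7 and 8.38 CPM against 58.6, 32.4, 41.2 and 26.4 CPM.

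**Figure D2:**
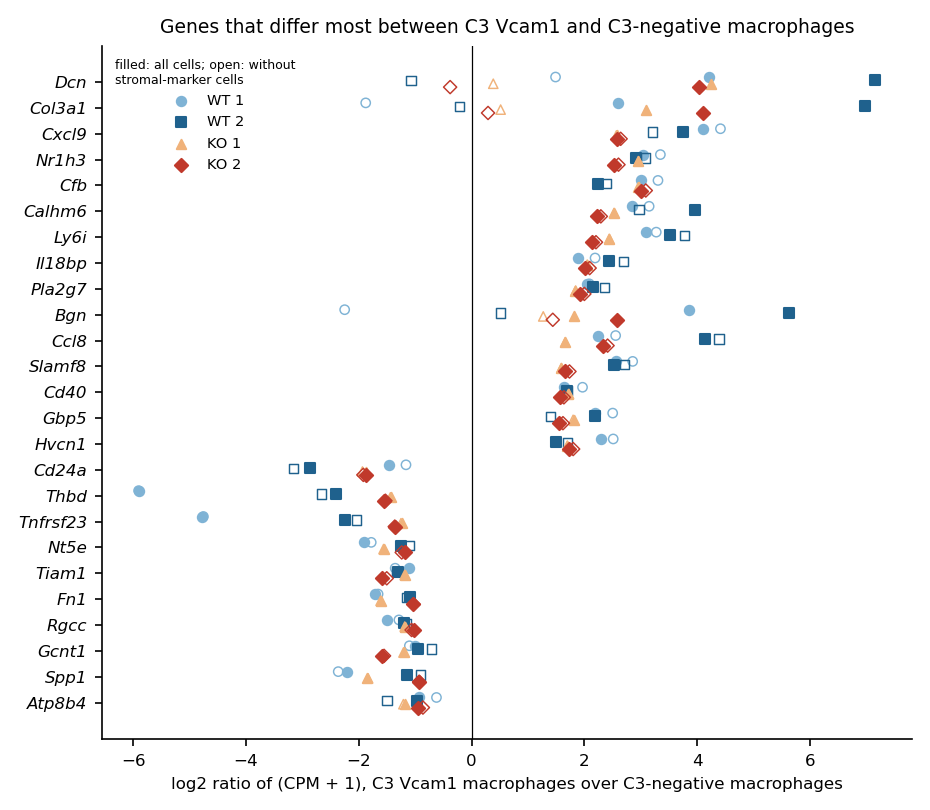
Log2 ratio of (CPM + 1) in C3 Vcam1 macrophages over C3-negative macrophages of the same library, for the 15 highest and 10 lowest genes by the naming rule. Symbols are libraries, filled for all cells and open without the 19 cells with stromal markers: Dcn then ranges from -1.07 to 1.49, while Cxcl9, Nr1h3 and Il18bp stay above 1 in every library.

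Cells that met every other step of the rule but had no Vcam1 UMI (295, 656, 2863 and 1232 cells) show what came with Vcam1 among C3-positive cells. Cxcl9 was at 548, 765, 1176 and 1032 CPM in them, above the C3-negative cells and below the selected cells in each library. Apoe, which encodes an apolipoprotein that carries lipid out of cells, was at 2648, 3926, 11146 and 4772 CPM in them and at 5812, 12194, 27168 and 13992 CPM in the selected cells. Ccl8 was at 100.4, 72.2, 879.9 and 701 CPM, again far below the selected cells in each library. Ly6i was at 68.8, 55.1, 338 and 213 CPM in them and at 43.7, 75.0, 222 and 175 CPM in the selected cells. Cells without Vcam1 thus held more Ly6i in every library but WT 2. Mertk, a receptor for dying cells, was at 22.9, 17.9, 49.3 and 33.3 CPM against 63.1, 42.9, 102 and 62.2 CPM in the selected cells. Arg1, the arginase of alternatively activated macrophages, was the other way round, at 4789, 3996, 4239.7 and 5034 CPM against 2077, 1863, 2149 and 3264 CPM. Among C3-positive cells, then, those with Vcam1 held more Apoe, Ccl8 and Mertk and less Arg1 in all 4 libraries, as description. Mrc1, another gene tied to alternative activation, did not go with Arg1. Without a Vcam1 UMI it was at 354, 208, 281 and 302 CPM. Split by C3 count, the selected cells held at least 398, 427, 422 and 327 CPM in the same order. With exactly 1 Vcam1 UMI they held 297, 298, 370 and 388 CPM, lower in WT 1 alone. These genes were picked for description after their values were seen, apart from Apoe, Cxcl9 and Ccl8.

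Within the selected KO cells, levels varied with C3. In KO 1, cells with 2 or 3, 4 to 7 and at least 8 C3 UMIs numbered 151, 181 and 223 and held 790.0, 1483 and 1948 CPM of Cxcl9. KO 2, with 45, 73 and 99 such cells, showed 472, 1170.5 and 1995 CPM. Il18bp was at 166, 155 and 334 CPM in KO 1 and at 99.6, 135 and 205 CPM in KO 2, highest in the cells with most C3. The few WT cells did not follow this order for Il18bp, with 22.01, 70.2 and 36.9 CPM in WT 1 and 29.9, 78.6 and 35.001 CPM in WT 2. Cxcl9 was at 308, 1124 and 960 CPM in WT 1 and at 339, 485 and 4459 CPM in WT 2. It thus rose with C3 in WT 2 as in KO, and in WT 1 was lowest in the cells with least C3. Apoe rose only slightly with C3 in KO 1, at 26487, 26915 and 27659 CPM. In KO 2 it was at 11241, 15150 and 14340.5 CPM, highest in the middle group. Deeper cells can hold more UMIs of C3, and the part of depth in these values was not tested.

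Between the genotypes, 168 of 8879 genes tested (1.89%) passed an adjusted p of 0.05 in the selected cells, 107 higher in KO (1.21%) and 61 lower (0.687%). The test was edgeR's quasi-likelihood test on UMI counts summed per library, with Benjamini-Hochberg adjustment, and changes are log2 KO over WT ± SE, with n = 2 libraries in each group. Without the 19 cells with stromal markers 119 genes of 8721 passed (1.36%), 96 higher (1.1%) and 23 lower (0.264%), and of the original calls 76 higher and 13 lower genes remained, with 25 of the 61 lower ones too low to be tested. Scaled by total counts the split was 69 higher and 90 lower, with the median of all genes at -0.12 against 0.01. C3, a gene of the rule, is among the 107 and is not read as a result. Without WT 2, which leaves the 17 cells of WT 1 as the whole WT group, 31 of 57 called genes that were examined singly lost their call. Its spread was then taken to be like that of the KO libraries.

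The 10 largest rises that met the naming rule joined secreted regulators, granule proteins and receptors. Il18bp rose from 34.0 and 50.0 CPM in WT 1 and WT 2 to 241 and 166 CPM in KO 1 and KO 2 (2.30 ± 0.28, adjusted p = 0.00184). It kept its call under all 18 alternatives, the only 1 of the 10 to do so. Inhba, which encodes a subunit of activin A, rose from 67.9 and 66.1 to 266 and 419 CPM (2.48 ± 0.28, adjusted p = 0.00138). Wfdc17, which encodes a small secreted protein of activated macrophages, rose from 92.2 and 238 to 1279.6 and 1465 CPM (3.05 ± 0.34, adjusted p = 0.00520). Gpnmb, a glycoprotein of lipid-laden macrophages, rose from 14.6 and 23.2 to 73.5 and 105 CPM, and Fpr2, a receptor for formylated peptides, from 14.6 and 12.5 to 68.0 and 59.2 CPM. The naming rule required both KO sums to lie above both WT sums. Without the Fcrls and Mmp13 limits Gpnmb did not pass (1.47, adjusted p = 0.175), and thinned neither did Wfdc17 (1.34, adjusted p = 0.112) nor Gpnmb (1.24, adjusted p = 0.685).

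Apol7c rose from 4.85 and 0 to 30.4 and 34.1 CPM (4.67 ± 0.75, adjusted p = 0.00574), with its WT level resting on 1 UMI. Its call ended without the Fcrls and Mmp13 limits (1.44, adjusted p = 0.686) and under DESeq2 (adjusted p = 0.0508). S100a8 and S100a9, the calprotectin subunits that neutrophils hold in bulk, rose from 19.4 and 10.7 to 64.2 and 62.5 CPM and from 0 and 1.79 to 28.9 and 23.9 CPM. Without the Vcam1 requirement both turned direction, to -0.21 and -1.81, and neither passed. S100a9 also missed the threshold without the highest Scrublet scores (3.50, adjusted p = 0.620) and under DESeq2 (adjusted p = 0.0915). The 7 neutrophil markers summed to 48.5, 44.6, 153 and 130 CPM in the selected cells, to 39.5, 50.2, 105 and 67.3 CPM in C3-negative macrophages and to 82.1, 142, 286 and 23.2 CPM in T cells, with Ly6g at 0 in every selected sum. The part of neutrophil RNA in these rises was not tested. Lyz1, a lysozyme gene close in sequence to Lyz2, was at 0, 5.36, 34.9 and 63.1 CPM, and Slpi, a protease inhibitor, at 29.1, 3.57, 63.3 and 50.9 CPM. Both passed with all cells and missed the threshold without the stromal cells (adjusted p = 0.0609 and 0.0639). Without WT 2 the calls of Apol7c, S100a9, Lyz1, Slpi, Inhba, Fpr2, S100a8 and Gpnmb ended, with adjusted p between 0.0633 and 0.315, and without WT 1 that of Lyz1 (adjusted p = 0.234).

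**Figure D3:**
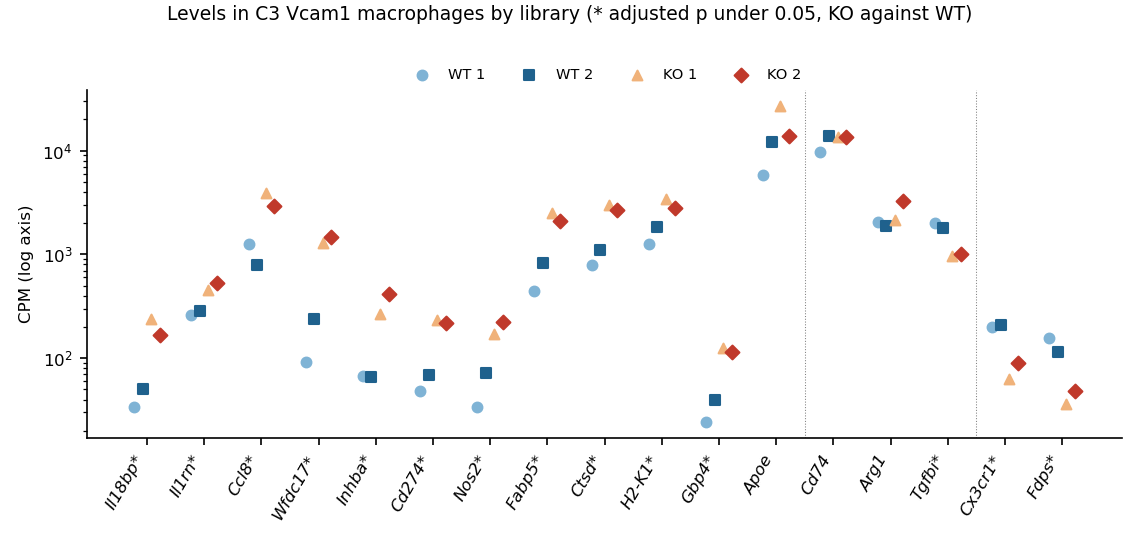
Level in CPM on a log axis of 17 genes in C3 Vcam1 macrophages, with a symbol for each library and an asterisk for an adjusted p under 0.05 (edgeR, KO against WT). From Il18bp to Gbp4 both KO libraries lie above both WT libraries, Apoe, Cd74 and Arg1 did not pass, and Tgfbi, Cx3cr1 and Fdps were lower in KO.

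Genes induced by interferon gamma formed the list with most calls among those on immune function. Of 18 tested, 8 rose and none fell, with a median change of 0.90. Over all genes tested, 1.21% rose and 0.687% fell, with a median of 0.01, and these shares stand beside every list below. Without the stromal cells 11 genes of the interferon gamma list rose and its median was 1.25. The GTPases Gbp4, Igtp and Irgm1, which act on intracellular pathogens, were among those that rose: Gbp4 from 24.3 and 39.3 to 125 and 114 CPM, Igtp from 34.0 and 25.0 to 123 and 95.8 CPM, and Irgm1 from 34.0 and 51.8 to 127 and 114 CPM. KO sums lay above WT sums in all 3 genes. Igtp missed the threshold without WT 2 (adjusted p = 0.0676). None of 20 genes of the type I interferon list passed, and their median change was 0.50. Bst2, the most nearly changed of these, was at 315, 395, 548 and 551 CPM (0.73 ± 0.19, adjusted p = 0.0650).

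MHC class I presents peptides to CD8 T cells. Of 17 genes, which encode its chains, peptide transporter and immunoproteasome, 7 rose and none fell, with a median of 0.76; without the stromal cells 5 rose. H2-K1, a class I heavy chain, was at 1266, 1839, 3445 and 2818 CPM (1.13 ± 0.22, adjusted p = 0.0172), and H2-D1 at 1601, 2247, 4422 and 3797 CPM (1.21 ± 0.21, adjusted p = 0.0104). Tap1, a subunit of the peptide transporter, was at 87.3, 114, 224 and 183 CPM, and Psmb10, an immunoproteasome subunit, at 155, 163, 290.3 and 285 CPM. KO lay above WT in each of the 4, and the calls of Tap1 and Psmb10 ended without WT 2 (adjusted p = 0.0545 and 0.0733), that of Tap1 also without KO 1 (adjusted p = 0.0551). Class I genes are alike in sequence, so counts of single members are uncertain. Of 12 genes of MHC class II, which presents to CD4 T cells, only Ctss rose, the cathepsin that trims the invariant chain. Ctss was at 3018, 4063, 6148 and 6359 CPM (0.94 ± 0.21, adjusted p = 0.0331), and lost its call without the stromal cells (adjusted p = 0.0588) and without WT 1, KO 1 or KO 2 (adjusted p from 0.0585 to 0.0750). Cd74, the invariant chain itself, was at 9767, 13822, 13451 and 13622 CPM (0.32 ± 0.22, adjusted p = 0.567), and its genotypes overlapped.

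**Figure D4:**
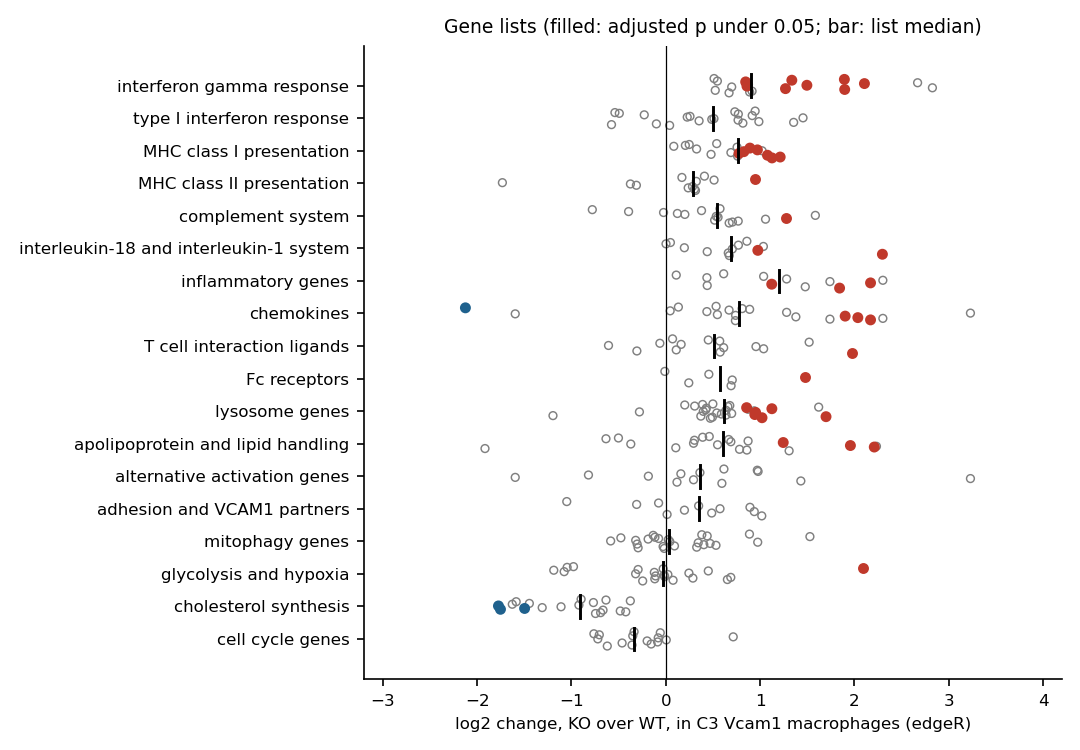
Log2 change, KO over WT, of each tested gene of 18 gene lists in C3 Vcam1 macrophages, filled where the adjusted p was under 0.05 (edgeR) and with a bar at the list's median. Interferon gamma response, MHC class I and lysosome lists hold 8, 7 and 6 filled genes to the right of 0, the type I interferon and mitophagy lists hold none, and 3 cholesterol synthesis genes lie to the left.

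Of 16 complement genes other than C3, Cfb alone passed (1.28 ± 0.28, adjusted p = 0.0352), with a list median of 0.54, and it lost its call without the stromal cells (adjusted p = 0.112) and without WT 2, KO 1 or KO 2 (adjusted p from 0.116 to 0.359). C1qa, which encodes a chain of the classical pathway's first component, was at 2688, 4281, 5309 and 4920.5 CPM (0.67 ± 0.23, adjusted p = 0.192). None of 11 genes of adhesion and VCAM-1 partners passed, and their median was 0.35. In the interleukin-18 and interleukin-1 list 2 of 12 rose, Il18bp and Il1rn, against 1.21% of all genes tested. Without the stromal cells 1 of the 12 rose. Both genes encode antagonists of these cytokines, and 2 genes do not make a result about the list. Il1rn, which blocks the interleukin-1 receptor, was at 262, 284, 458 and 533 CPM (0.98 ± 0.19, adjusted p = 0.0155), and lost its call without the stromal cells (adjusted p = 0.0571), without WT 2 (adjusted p = 0.0550) and without KO 2 (adjusted p = 0.0812).

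Of 12 inflammatory genes 3 rose and none fell, with a median of 1.20, and 5 rose without the stromal cells. Nos2, the inducible nitric oxide synthase, was at 34.0, 71.4, 169.9 and 224 CPM (1.84 ± 0.28, adjusted p = 0.00520). Ptgs2, the inducible prostaglandin synthase, was at 247, 204, 476 and 405 CPM (1.12 ± 0.19, adjusted p = 0.00764), and Ccl3, which attracts leukocytes, at 9.70, 50.0, 174 and 139 CPM. The 3 genes were higher in both KO sums, and without WT 2 the call of Ptgs2 ended (adjusted p = 0.0760). Of 20 chemokines Ccl3, Ccl6 and Ccl8 rose and Cxcl14 fell, while without the stromal cells 6 of 21 rose and none fell. Ccl8 rose from 1257 and 789 to 3940.1 and 2921 CPM (1.90 ± 0.23, adjusted p = 0.00184), but after thinning to 3000 UMIs, with 11 and 8 WT cells, its change was -0.49 and did not pass (adjusted p = 0.434). A Ccl8 UMI was also found in 34.5% and 16.2% of T cells in WT 1 and WT 2 and in 60.5% and 50.2% in KO 1 and KO 2. The part of free RNA in the rise of Ccl8 was not tested. Ccl6 was at 679, 563, 1499 and 3104 CPM (2.04 ± 0.34, adjusted p = 0.0328), and its call ended without the stromal cells (adjusted p = 0.140) and without either WT library (adjusted p = 0.432 and 0.444). Cxcl14, at 67.9, 118, 20.9 and 21.5 CPM, fell only with the stromal cells included (-2.12 ± 0.27, adjusted p = 0.00193; without them -0.70 and 0.607), and its call also ended without WT 2 (adjusted p = 0.109). Cxcl10, a CXCR3 ligand like Cxcl9 that was picked after its values were seen, was at 247, 488, 732 and 576 CPM and passed without the stromal cells alone (1.68, adjusted p = 0.00149; with them 0.89 and 0.185). None of 13 genes of alternative activation passed; Arg1 was at 2077, 1863, 2149 and 3264 CPM (0.59 ± 0.21, adjusted p = 0.217).

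Of 14 ligands for T cells, Cd274 rose, which encodes PD-L1, the ligand of the inhibitory receptor PD-1. It was at 48.5 and 69.6 CPM in WT 1 and WT 2 and at 236 and 220.2 CPM in KO 1 and KO 2 (1.98 ± 0.23, adjusted p = 0.00138), without overlap. Among 6 Fc receptor genes Fcgr4, an activating receptor for IgG, rose from 131 and 202 to 467 and 425 CPM (1.47 ± 0.21, adjusted p = 0.00394). Both calls held without the stromal cells and without any 1 library.

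A minority of lysosome and lipid genes passed. Of 28 lysosome genes 6 rose and none fell, with a median of 0.61, and 4 rose without the stromal cells. Ctsd, the protease cathepsin D, rose from 796 and 1097 to 3005 and 2682 CPM (1.70 ± 0.21, adjusted p = 0.00184). Psap, the precursor of the saposins that help degrade sphingolipids, rose from 2299.7 and 3200.2 to 5837 and 5195 CPM (1.12 ± 0.21, adjusted p = 0.0146). Ctsb, cathepsin B, was at 1519, 1619.8, 3246 and 2580.2 CPM (1.02 ± 0.19, adjusted p = 0.0144), and its call ended without KO 1 (adjusted p = 0.135). Of 20 lipid genes Gpnmb, Fabp5 and Plin2 rose. Fabp5, a fatty acid carrier, rose from 442 and 821 to 2519 and 2109 CPM (1.96 ± 0.27, adjusted p = 0.00520), and Plin2, a coat protein of lipid droplets, from 286 and 211 to 575 and 471 CPM (1.25 ± 0.20, adjusted p = 0.00583). The call of Plin2 ended without WT 2 (adjusted p = 0.0689). Apoe was at 5812 and 12194 CPM in WT and at 27168 and 13992 CPM in KO (1.31 ± 0.51, adjusted p = 0.369): KO 2 lay close to WT 2, and the difference between genotypes did not pass. An Apoe UMI was also found in 54.9% and 67.9% of T cells in WT 1 and WT 2 and in 96.3% and 84.5% in KO 1 and KO 2. The part of free RNA in the levels of Apoe was not tested.

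None of 24 genes of mitophagy, the removal of damaged mitochondria, passed, with a median change of 0.03. Of 21 genes of glycolysis and hypoxia only Hilpda rose, which protects lipid droplets from lipolysis, from 87.3 and 119.7 to 454 and 393 CPM (2.09 ± 0.21, adjusted p = 0.00130). None of 15 cell cycle genes passed, and their median was -0.34. Without the stromal cells Hmgb2, a chromatin protein of dividing cells, passed as lower (-0.87, adjusted p = 0.0383); cells with both Mki67 and Top2a had been excluded. Of 17 immediate early and heat shock genes, which enzymatic digestion can induce, Fosb and Dusp1 rose, with a median of 0.58. Fosb was at 301, 357, 706 and 575 CPM (1.07 ± 0.19, adjusted p = 0.0125), and its call ended without KO 1 (adjusted p = 0.0638). Their part in the other changes was not tested. Of 13 macrophage markers outside the rule, Lyz2 and Cd68 rose with all cells and neither passed without the stromal cells (adjusted p = 0.131 and 0.0571).

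All 10 of the largest falls by the naming rule (Col18a1, Col4a1, Osr1, Col4a2, Bcar1, Dkk2, Has1, Col6a3, Plod2 and Fermt2), of which several encode collagens and matrix enzymes, fell below the filter on low counts once the 19 cells were left out and could no longer be tested. Col18a1, for example, was at 9.70, 53.6, 0.519 and 1.50 CPM. Falls that held without those cells were named after their values were seen. Cx3cr1, the fractalkine receptor, fell from 199 and 211 to 62.4 and 89.2 CPM (-1.33 ± 0.22, adjusted p = 0.00629), though not without WT 2 (adjusted p = 0.118). A Cx3cr1 UMI was found in 47.1%, 66.7%, 23.4% and 31.3% of the selected cells in WT 1, WT 2, KO 1 and KO 2. In C3-negative macrophages the shares were 47.7%, 53.5%, 16.2% and 17.6%, so detection was lower in KO in both classes. Tgfbi, a matrix protein induced by TGF-beta, was at 1994, 1789, 958 and 1015 CPM (-0.80 ± 0.17, adjusted p = 0.0328), and Pmepa1, an inhibitor of TGF-beta signalling that TGF-beta induces, at 505, 521, 132 and 219.6 CPM (-1.42 ± 0.23, adjusted p = 0.00918). The call of Tgfbi ended without each library in turn (adjusted p from 0.0509 to 0.355), and that of Pmepa1 without either WT library (adjusted p = 0.104 and 0.218). Gpr183, an oxysterol-guided migration receptor, was at 43.7, 26.8, 6.40 and 8.98 CPM, and its call too ended without each library in turn (adjusted p from 0.0774 to 0.172). Ccr2, the receptor that recruits monocytes, was at 480.3, 239, 95.8 and 52.1 CPM and did not pass (-2.04 ± 0.45, adjusted p = 0.137).

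Cholesterol synthesis had the lowest median change of the pathway lists, -0.91 over 18 genes, of which 3 fell and none rose. Fdps, which makes farnesyl pyrophosphate, fell from 155 and 116 to 36.5 and 48.8 CPM (-1.50 ± 0.24, adjusted p = 0.00520; without the stromal cells -1.15 and 0.0492). Idi1, at 58.2, 67.9, 14.4 and 21.8 CPM, and Cyp51, at 58.2, 94.7, 18.7 and 26.3 CPM, act before and after it in the pathway. Both lost their calls without the stromal cells (adjusted p = 0.0718 and 0.216) and without WT 2 (adjusted p = 0.203 and 0.293), and Idi1 also without KO 1 (adjusted p = 0.0618).

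Whether a change between genotypes was larger in the selected cells than in C3-negative macrophages was tested as an interaction in edgeR, with library as a block. Of 10956 genes 37 passed (0.338%), 19 with a larger change in the selected cells (0.173%) and 18 with a smaller one (0.164%), Vcam1 of the rule among the latter. Of the 106 genes that rose in the selected cells, leaving C3 out, 17 passed the interaction, 14 with a larger and 3 with a smaller change than in C3-negative macrophages. The 106 were picked by their rise in the same sums, which by itself favours larger changes there, so this split is description only. Il18bp was not among the 17: it was higher in KO in both classes, and its changes differed by -0.25 ± 0.28 (adjusted p = 0.903). No difference between the classes passed for H2-K1 either (-0.01 ± 0.16, adjusted p = 0.9999) and Inhba (0.05 ± 0.58, adjusted p = 0.9999). The interval of such a difference is wide, and a p that misses the threshold does not show equal change.

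Fabp5 rose more in the selected cells: it went from 442 and 821 to 2519 and 2109 CPM in them and from 481 and 654 to 1133 and 968 CPM in C3-negative macrophages, a difference of changes of 1.11 ± 0.17 (adjusted p = 0.00267). It did not pass without the Fcrls and Mmp13 limits (0.32, adjusted p = 0.107) or thinned (adjusted p = 0.517). Ctsd did likewise, from 796 and 1097 to 3005 and 2682 CPM against 1263 and 1211 to 2154 and 1694 CPM (1.07 ± 0.18, adjusted p = 0.00589). The interaction of Ctsd did not pass without KO 2 (adjusted p = 0.126), without the Vcam1 requirement (0.62, adjusted p = 0.102) or thinned (adjusted p = 0.495). Hilpda was lower in the selected WT cells than in C3-negative WT cells, at 87.3 and 119.7 against 424.5 and 341 CPM, and came closer in KO, at 454 and 393 against 681 and 463 CPM (1.46 ± 0.22, adjusted p = 0.00273). The difference did not pass without the Vcam1 requirement (0.32, adjusted p = 0.689), with at least 1 C3 UMI (0.90, adjusted p = 0.747) or thinned (0.95, adjusted p = 0.845). Cd274, chosen for mention after its values were seen, rose more in the selected cells by 1.01 ± 0.22 (adjusted p = 0.0479). That value lies just under the threshold, and the interaction of Cd274 was not followed through the alternative settings. F13a1, the coagulation factor XIII subunit made by monocytes and macrophages, rose in the selected cells from 82.5 and 44.6 to 232 and 227 CPM (2.14 ± 0.25, adjusted p = 0.00138), but its change was -0.67 and did not pass after thinning (adjusted p = 0.541). In C3-negative macrophages F13a1 was at 434, 205, 512 and 367.5 CPM, and the interaction (1.48 ± 0.24, adjusted p = 0.00452) did not pass without either WT library (adjusted p = 0.179 and 0.132).

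Iigp1 and Cxcl9 showed the reverse. Iigp1, an interferon-induced GTPase, was at 189, 259, 399 and 372 CPM in the selected cells of WT 1, WT 2, KO 1 and KO 2 and at 14.8, 31.2, 185 and 127 CPM in C3-negative macrophages. The selected WT cells thus held more of it than C3-negative KO cells. Its difference of changes was -1.80 ± 0.21 (adjusted p = 0.000489), and -1.61 (adjusted p = 4.5e-06) without the stromal cells. It did not pass thinned (-0.05, adjusted p = 0.993), without the Vcam1 requirement (-0.31, adjusted p = 0.7995), with at least 1 C3 UMI (-1.59, adjusted p = 0.0616) or without the Fcrls and Mmp13 limits (adjusted p = 0.679). Within the selected cells Iigp1 still rose (0.86 ± 0.20, adjusted p = 0.0412), though not without WT 1 or KO 1 (adjusted p = 0.117 and 0.135). Cxcl9 differed by -1.21 ± 0.16 (adjusted p = 0.000645) on the levels given above, but not without the stromal cells (-0.97, adjusted p = 0.408), nor in 5 other settings (adjusted p from 0.612 to 0.845).

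**Figure D5:**
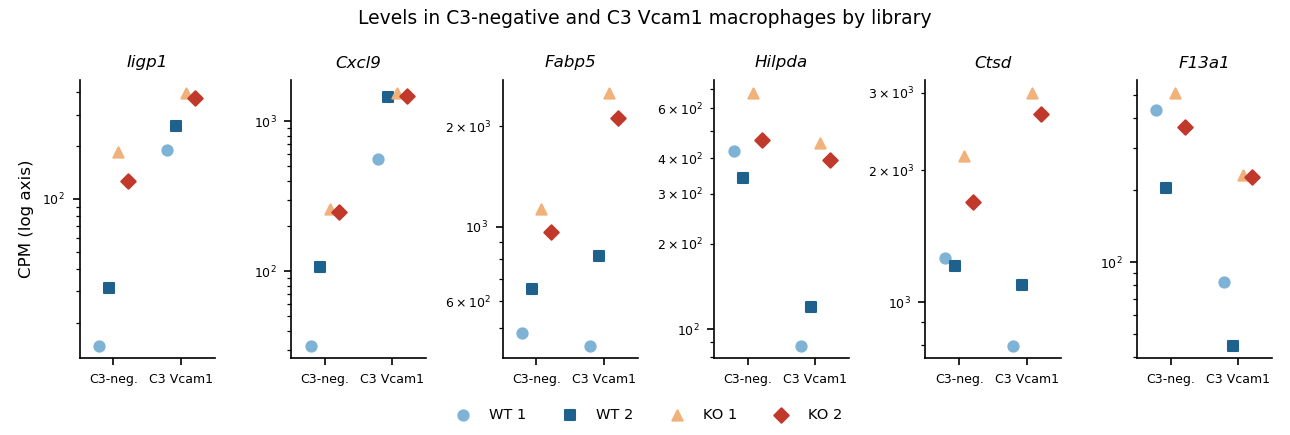
Level in CPM on a log axis of 6 genes in C3-negative macrophages (left of each panel) and C3 Vcam1 macrophages (right), with a symbol for each library. The genotypes lie further apart on the left for Iigp1 and Cxcl9 and further apart on the right for Fabp5, Hilpda, Ctsd and F13a1.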

How the data were processed

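The deposited values are UMI counts, whole numbers without normalisation, for every gene and barcode of 3' tag libraries from CD45-enriched cells. Cell Ranger 5.0.1, Seurat 3.15 and mm10 are named in the submitters' processing notes, without their roles. The tables list 22620 genes.

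The selected cells and all gene lists were chosen with earlier results of these data known. Barcodes passed with 200 or more genes detected and no more than 20% of UMIs mitochondrial. Scrublet in scanpy 1.11.5 called 1, 0, 0 and 1 doublets and was taken not to have worked. Leaving out the highest scores, 0.8% per 1000 barcodes (601, 622, 2369 and 722), and leaving out the top 10% of selected cells by UMIs were alternatives instead. Free RNA was not removed. The targeted gene and a few other items are not reported here. UMI counts of the selected cells were summed per library, since cells are not replicates, and tested under R 4.3.3 with edgeR 4.0.16 (genes kept by filterByExpr, TMM scaling, robust quasi-likelihood test, two-sided, Benjamini-Hochberg over all genes tested). DESeq2 1.42.0 was an alternative. The test was tried on simulated data.

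Named genes were the 10 largest rises and falls that passed, with both KO libraries beyond both WT libraries and at least 20 CPM in the higher group; up to 4 genes per list, passing ones by p and then the most abundant; the 15 highest and 10 lowest ratios to C3-negative macrophages; the 10 interactions with the smallest p; and C3, Vcam1, Apoe and Il18bp. Sequences are from RefSeq promoter tables on GRCm38.p6. Leaving out cells with stromal markers and dropping the Fcrls and Mmp13 limits were alternatives added after seeing the data.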

Additional observations from a re-analysis of the deposited data

Results flagged for a closer look

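For 10 genes the change between KO and WT differed between C3 Vcam1 macrophages and C3-negative macrophages by the interaction test (edgeR's quasi-likelihood test, Benjamini-Hochberg adjustment, n = 2 libraries per genotype). Values are differences of log2 changes, selected cells minus C3-negative cells, and no explanation was weighed.

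Chil3, a chitinase-like protein of alternatively activated macrophages, differed by 3.20 ± 0.32 (adjusted p = 1.68e-05). It was at 34.0, 10.7, 18.7 and 71.2 CPM in the selected cells of WT 1, WT 2, KO 1 and KO 2 and at 596, 83.2, 27.4 and 113 CPM in C3-negative macrophages, where WT 1 was far above the others. Without a Vcam1 requirement the difference was -0.37.

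Larger in the selected cells were the changes of Fabp5 (1.11), Hilpda (1.46), F13a1 (1.48) and Ctsd (1.07). Smaller were those of Iigp1 (-1.80) and Cxcl9 (-1.21). Cnn3, which encodes calponin 3, an actin-binding protein of stromal cells, differed by -2.40 (adjusted p = 0.000867) with all cells, but by -0.58 (adjusted p = 0.972) without the cells that carry stromal markers and by -2.02 (adjusted p = 0.392) without WT 2.

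Thy1, a surface protein of T cells and fibroblasts, differed by -5.97 (adjusted p = 0.00445). It was at 0, 46.4, 3.98 and 2.09 CPM in the selected cells, and the call ended without the stromal cells (-2.03, adjusted p = 0.959), without WT 2 (4.44, adjusted p = 0.920) and without KO 1 (adjusted p = 0.0613). Gm13889 differed by -9.85 (adjusted p = 0.00226) on 0, 42.9, 0.173 and 0 CPM in the selected cells, so WT 2 held nearly all of it, and without WT 2 the difference was -0.32 (adjusted p = 0.996).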

How the results depend on the processing

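The 168 genes called between KO and WT became 634 without a filter on low counts, 258 with at least 1 C3 UMI, 67 with at least 3, 97 without the highest Scrublet scores, 304 without the Fcrls and Mmp13 limits, 874 without the Vcam1 requirement, 43 after thinning to 3000 UMIs, 108 without the top 10% by UMIs, and 114 to 252 with 1 library left out. DESeq2 called 126. The 37 interactions became 169, 23, 134, 147, 146, 43, 5 and 129 in the same settings, 75 with Adgre1 required, 75 without stromal cells, 22 at 10% mitochondrial UMIs, and 38 to 88 with 1 library left out. By total counts 8 were larger and 30 smaller. Of the 20 genes named for large changes 12, 9, 8, 12, 12, 1 and 8 kept their call with at least 1 C3 UMI, at least 3, without the highest Scrublet scores, without the Fcrls and Mmp13 limits, without Vcam1, thinned and without the top 10%, 8 without stromal cells, and 4 to 16 with 1 library left out. The 47 calls among listed genes became 129 without a filter, 77 and 31 with at least 1 and 3 C3 UMIs, 146 without Vcam1, 26 thinned, and 47 to 64 with 1 library left out.

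The mean share was 0.604% in WT and 3.47% in KO with at least 1 C3 UMI, 1.01% and 3.49% without the Fcrls and Mmp13 limits, and 5.78% and 17.6% without Vcam1; thinned, KO was at 1.38%. With 1 library left out WT ranged from 0.196% to 0.510% and KO from 2.28% to 3.23%. The 54 genes beyond 1 log2 unit of C3-negative macrophages became 15 without Vcam1 and 65 to 86 with 1 library left out.

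Directions reversed without Vcam1 for S100a9 (-1.81), Slpi (-0.30), S100a8 (-0.21) and the interaction of Chil3 (-0.37), thinned for Ccl8 (-0.49), F13a1 (-0.67) and its interaction (-0.24), without the Fcrls and Mmp13 limits for the interaction of F13a1 (-0.47), and without WT 2 for that of Thy1 (4.44; from -6.97 to 4.44 with 1 library left out). The cause was not tested.

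Libraries with the same replicate number did not deviate together (correlation -0.0442, a single value since 2 libraries a group fix the second pair), so the numbers were not taken to pair them. With the replicate number as a block 315 genes were called, 174 higher and 141 lower, and 83 among listed genes.

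The 206110 UMIs of the 17 selected cells in WT 1 limit the precision of every level.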
